A study of Homo sapiens with 8 samples.

Results

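The planar cell polarity genes VANGL1, VANGL2, PRICKLE1, PRICKLE2, CELSR1, CELSR2, CELSR3, DAAM1, DAAM2 and INVS were followed in 4 human prostate cancer cell lines with and without depletion of the DNA-dependent protein kinase DNA-PK. These 10 genes were chosen by name. Of them, 9 had a probe set annotated with 1 gene symbol, out of 22395 genes with such a probe set, and all 9 lay above the expression filter of 2.51 on the log2 scale. CELSR3 was not analysed here, because its probe set carries several symbols. DAAM2 passed the filter narrowly, with a mean of 2.52 over the 8 arrays.

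Each line was transfected with small interfering RNA (siRNA) against DNAPK, or with non-targeting siRNA as the control, and harvested 48 hours later. C4-2B descends from LNCaP. VCaP is known for an ERG gene fusion. DU145 and PC3 grow without androgen. The DNAPK and control transfections of a line were separate, and the labels say nothing of repeat cultures within a treatment. Each line gave 1 siDNAPK array and 1 control array, 8 in all, from total RNA on Affymetrix whole-transcript arrays. The study's title places its question in transcriptional control of Wnt signalling, and planar cell polarity is one of the Wnt branches that do not use beta-catenin.

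Planar cell polarity aligns cells within the plane of an epithelium. The atypical cadherins CELSR1 to CELSR3, homologues of the fly protein Flamingo, bind each other across cell borders. VANGL1 and VANGL2 are membrane proteins that recruit the cytoplasmic PRICKLE proteins to one side of the cell, opposite Frizzled and Dishevelled. DAAM1 and DAAM2 are formins that link Dishevelled to actin assembly, and INVS encodes inversin, a protein of the primary cilium that directs Dishevelled away from beta-catenin signalling. In migrating tumour cells the same proteins are known for roles in protrusion and directed movement.

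PRKDC, which encodes the catalytic subunit of DNA-PK, was lower with siDNAPK in each line, with 17.4% of the control signal left in C4-2B, 25.1% in PC3, 47.2% in DU145 and 65.0% in VCaP. The epithelial genes EPCAM and CDH1 read at least 8.84 on every array, while the keratin genes KRT8 and KRT18 read only 3.58 to 5.14 and 4.37 to 5.47. KLK2, an androgen-regulated kallikrein, read at least 10.31 in C4-2B and VCaP and at most 4.47 in DU145 and PC3, while ERG reached 8.57 or more in VCaP and at most 3.56 elsewhere. KLK3 read 4.75 with siDNAPK and 4.46 in the control of VCaP, low for a line known to make PSA, and TMPRSS2, also luminal, read 7.17 and 6.72 in PC3, at most 3.37 in DU145 and at least 8.68 in C4-2B and VCaP. Of 12 immune, endothelial and fibroblast markers 9 were measured, and their list medians lay between 2.21 and 3.11 on every array. CD68, listed there as an immune marker, read 7.94 with siDNAPK and 7.73 in the control of DU145 and 7.06 and 7.40 in PC3. PTPRC, the pan-leukocyte marker, read at most 2.02. COL1A1, on the fibroblast list, read 3.63 to 5.06 over the arrays, above those medians.

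The promoters of PRICKLE1 and VANGL2 are shown because, of the members with an entry in the promoter table, their levels differed most between lines. Sequences are from RefSeq, build GRCh38.p14, and run from 250 bases before to 50 bases after the annotated start, 5′ to 3′ on the gene's strand. Capitals mark the GC box GGGCGG on either strand, the core bound by Sp1-type factors. The PRICKLE1 window lies at chr12:42483566-42483865 on the minus strand and the VANGL2 window at chr1:160400314-160400613 on the plus strand.
PRICKLE1: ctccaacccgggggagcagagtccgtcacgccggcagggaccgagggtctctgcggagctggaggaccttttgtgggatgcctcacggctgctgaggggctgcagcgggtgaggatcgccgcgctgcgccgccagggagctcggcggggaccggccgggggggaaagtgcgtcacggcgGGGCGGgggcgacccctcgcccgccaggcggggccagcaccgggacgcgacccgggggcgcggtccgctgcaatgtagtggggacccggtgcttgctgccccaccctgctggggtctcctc
VANGL2: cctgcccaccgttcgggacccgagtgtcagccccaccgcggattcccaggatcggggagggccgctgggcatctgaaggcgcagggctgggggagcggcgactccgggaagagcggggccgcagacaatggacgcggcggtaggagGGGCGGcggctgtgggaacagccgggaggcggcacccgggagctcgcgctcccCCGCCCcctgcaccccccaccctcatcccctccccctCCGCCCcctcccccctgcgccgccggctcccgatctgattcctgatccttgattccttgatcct
PRICKLE1 held 1 GC box and VANGL2 held 3, and 44.95% of all 35116 promoter windows of this length hold at least 1. The windows had 33 and 29 CG dinucleotides, in that order, against a median of 14 over all windows. Searched on both strands, neither held the TCF/LEF letters CTTTGAT or CTTTGAA, found in 2.62% and 4.43% of all windows, nor the E-box CACCTG, found in 20.59%. Of the 10 genes, 9 had an entry in the promoter table, with 13 windows, and 1 of those windows, the second listed for DAAM2, held CTTTGAA. The PRICKLE2 windows had 4 and 7 CG dinucleotides and no GC box, and the second window listed for DAAM1 had 5 and no GC box. The second DAAM2 window had 6 CG dinucleotides and 1 GC box. The arrays read transcripts, and neither binding nor methylation was measured at these windows.

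Standing levels of 5 of the 9 genes differed widely between lines. Line means of PRICKLE1 spanned 3.04 log2 units, those of CELSR1 2.13, of VANGL2 1.63, of DAAM1 1.45 and of INVS 1.31. All 5 spanned over 1 unit, as did 44.9% of all genes. CELSR2, VANGL1, PRICKLE2 and DAAM2 spanned 0.63, 0.61, 0.58 and 0.48. Lines were compared in a limma fit with line and treatment as terms, in which the 2 arrays of a line serve as its repeats. Because these arrays differ in siRNA, the p-values rest on how far the siRNA difference varied between lines. That spread holds an unknown share of technical noise, and repeat cultures of a line were not measured. Of the 9 genes, 6 were called in at least 1 of the 6 line contrasts (limma, adjusted p under 0.05 over all genes), against 70.2% of the 16796 genes tested, so the share was near that of all genes. Among 54 gene and contrast combinations 22 were called, and 13 of those stayed called under each of 14 alternative settings.

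**Figure D1:**
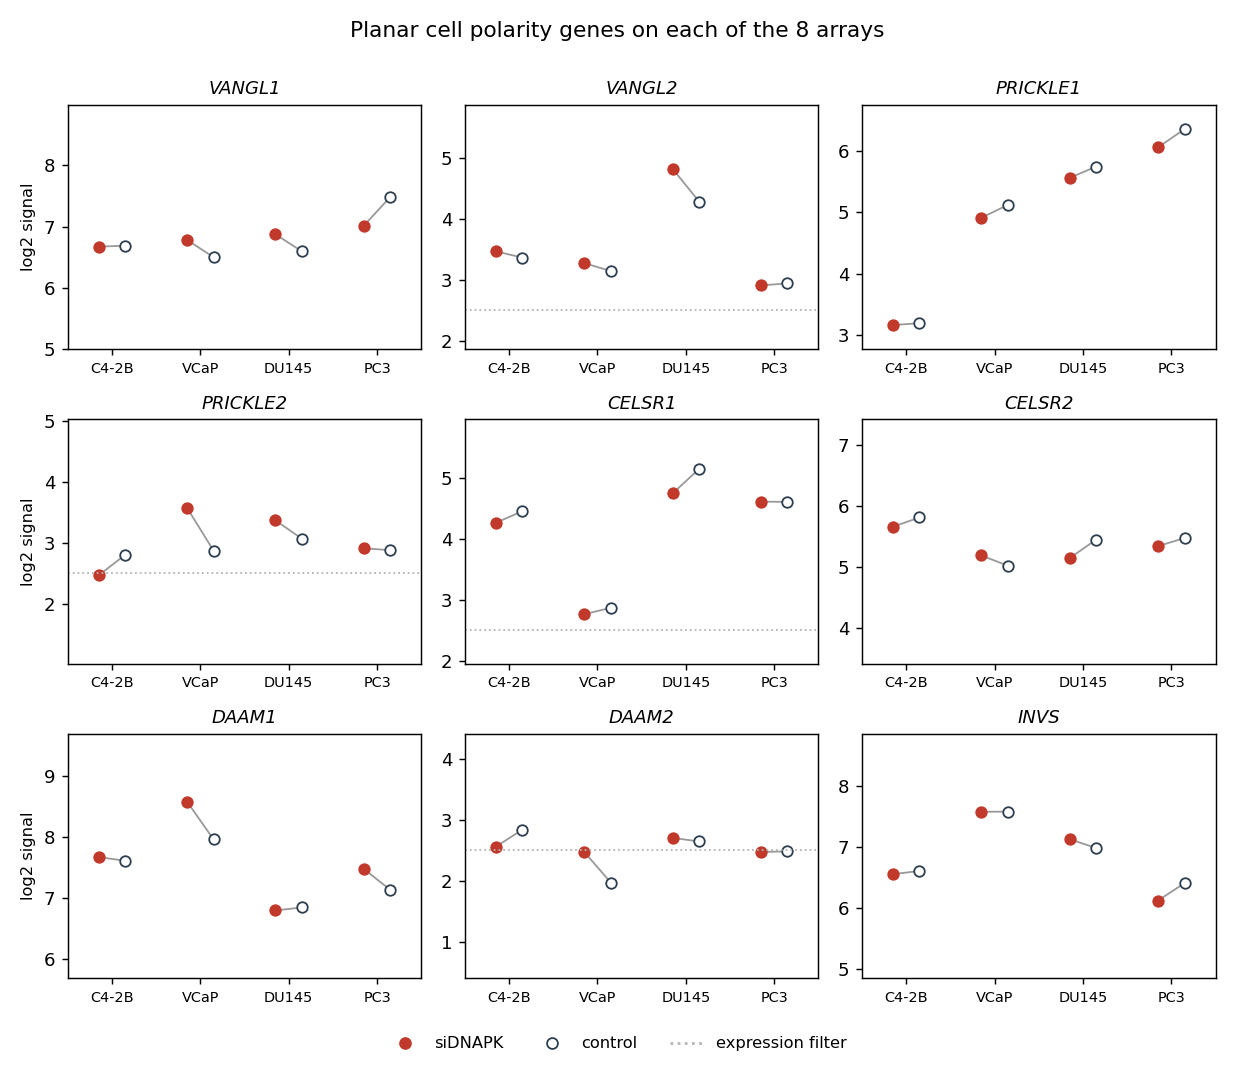
Log2 signal (vertical axis, spanning 4 units in each panel) of the 9 measured genes in C4-2B, VCaP, DU145 and PC3, with the siDNAPK array as a filled point and the control array as an open point, joined within a line. PRICKLE1 is lowest in C4-2B, CELSR1 is lowest in VCaP and VANGL2 is highest in DU145 on both arrays, while the dotted line marks the filter of 2.51 where it falls within a panel.

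Among the cadherins, CELSR1 set VCaP apart. It read 2.76 with siDNAPK and 2.87 in the control of VCaP, against 4.26 and 4.45 in C4-2B, 4.74 and 5.14 in DU145, and 4.61 and 4.60 in PC3. Both VCaP arrays lay below all 6 others and close to the filter level. The difference was -1.54 ± 0.17 (SE) for VCaP minus C4-2B, -2.13 ± 0.17 for VCaP minus DU145 and -1.79 ± 0.17 for VCaP minus PC3, with limma adjusted p of 4.65e-04, 5.81e-05 and 1.30e-04. With VCaP this dim, the differences may understate the gap. The order among the other lines was DU145, PC3 and C4-2B, and neighbours in it were not called (limma, adjusted p = 0.174 and 0.293), while C4-2B minus DU145, at -0.59, was called with an adjusted p of 0.0292. That call ended without either C4-2B array (adjusted p = 0.147 and 0.160), without the DU145 control array (0.208) and with a variance trend (0.0546).

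CELSR2 varied little. It read 5.66 with siDNAPK and 5.81 in the control of C4-2B, 5.34 and 5.47 in PC3, 5.14 and 5.45 in DU145, and 5.19 and 5.02 in VCaP. The ranges of DU145 overlapped those of PC3 and of VCaP, and both C4-2B arrays were highest. Its 1 call, VCaP minus C4-2B at -0.63 (limma, adjusted p = 0.0254), ended without either C4-2B array (0.153 and 0.123) or without the VCaP control array (0.105).

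Of the Van Gogh-like genes, VANGL2 was highest in DU145. It read 4.83 with siDNAPK and 4.29 in the control of DU145, against 3.48 and 3.37 in C4-2B, 3.28 and 3.15 in VCaP, and 2.92 and 2.95 in PC3. Both DU145 arrays lay above all 6 others. PC3 minus DU145 was -1.63 ± 0.18 (SE), C4-2B minus DU145 -1.14 ± 0.18 and VCaP minus DU145 -1.34 ± 0.18 (limma, adjusted p = 6.30e-04, 0.00250 and 9.24e-04). The arrays of PC3 and VCaP were dim, so differences from these lines may be understated. Below DU145, the neighbours C4-2B and VCaP (adjusted p = 0.430) and VCaP and PC3 (0.262) were not called apart. VANGL1 showed no called contrast. It read 7.01 with siDNAPK and 7.49 in the control of PC3, 6.87 and 6.59 in DU145, 6.67 and 6.69 in C4-2B, and 6.78 and 6.50 in VCaP. Both PC3 arrays were the highest, but VCaP minus PC3 at -0.61 missed the threshold (limma, adjusted p = 0.0571), with a 95% interval of -1.12 to -0.10.

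PRICKLE1 varied most among the 9 genes, and its range between line means exceeded that of 93.3% of all genes. It read 3.16 with siDNAPK and 3.19 in the control of C4-2B, 4.91 and 5.12 in VCaP, 5.57 and 5.75 in DU145, and 6.07 and 6.36 in PC3. No line's arrays overlapped those of another, and all 6 contrasts were called. C4-2B minus PC3 was -3.04 ± 0.16 (SE), C4-2B minus DU145 -2.49 ± 0.16, VCaP minus C4-2B 1.85 ± 0.16 and VCaP minus PC3 -1.20 ± 0.16 (limma, adjusted p = 8.85e-06, 2.37e-05, 1.57e-04 and 6.98e-04). The C4-2B arrays were dim, so differences from that line may be understated. The smaller steps were less firm. PC3 minus DU145 was 0.56 (adjusted p = 0.0315), a call that ended without any 1 of the C4-2B, DU145 or PC3 arrays (0.0600 to 0.192). VCaP minus DU145 was -0.64 (adjusted p = 0.0135), a call that ended without either DU145 array (0.0721 and 0.0723).

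Of 3 mesenchymal markers (VIM, CDH2 and ZEB1), all measured, the list medians also ran higher in DU145 and PC3. They were 5.66 with siDNAPK and 5.30 in the control of DU145, 7.22 and 7.77 in PC3, 2.90 and 2.42 in C4-2B, and 2.47 and 2.22 in VCaP. VIM and ZEB1 were higher in both DU145 and PC3 than in the other lines, while CDH2 read 7.72 and 7.77 in PC3 and at most 2.36 elsewhere. Between DU145 and PC3, VIM and ZEB1 ran against the order of the medians and of PRICKLE1. VIM read 8.15 with siDNAPK and 8.19 in the control of DU145, against 7.22 and 7.82 in PC3. ZEB1 read 5.66 and 5.30 in DU145, against 4.90 and 4.72 in PC3. VCaP and C4-2B overlapped in these medians, although PRICKLE1 was higher in VCaP than in C4-2B. The single markers differed in this. VIM read 3.95 with siDNAPK and 4.29 in the control of C4-2B, against 2.47 and 2.22 in VCaP. ZEB1 overlapped between these lines, and CDH2 was slightly higher in VCaP, at 2.36 and 2.18 against 2.07 and 2.03. The part of these markers in the PRICKLE1 levels was not tested.

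PRICKLE2, the paralogue of PRICKLE1, had no called contrast in the main fit. It read 2.46 with siDNAPK and 2.80 in the control of C4-2B, 3.57 and 2.87 in VCaP, 3.36 and 3.06 in DU145, and 2.91 and 2.88 in PC3. The range of VCaP overlapped those of DU145 and PC3, both C4-2B arrays lay below all 6 others, and most values were close to the filter level. A dimmer probe set of the same gene, with a mean of 2.81, read highest in DU145, at 3.37 and 3.56, and lowest in PC3, at 2.32 and 2.42. With the probe sets of a gene averaged, line calls among the members rose from 22 to 24, and all 22 earlier calls held. PRICKLE2 is the only member whose values that rule changes, so its lack of a call may depend on the probe set kept.

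The formin gene DAAM1 was highest in VCaP and lowest in DU145. It read 8.58 with siDNAPK and 7.96 in the control of VCaP, 7.67 and 7.61 in C4-2B, 7.48 and 7.14 in PC3, and 6.80 and 6.85 in DU145. The lines did not overlap. VCaP minus DU145 was 1.45 ± 0.20 (SE; limma, adjusted p = 9.36e-04), a 2.73-fold higher signal. VCaP minus PC3, at 0.96 (adjusted p = 0.00648), lost its call without the PC3 control array (0.0534), and C4-2B minus DU145, at 0.82 (0.0155), lost it without either C4-2B array (0.137 and 0.0599) or the DU145 siDNAPK array (0.127). VCaP minus C4-2B, at 0.63, passed narrowly (0.0443) and missed under 9 of 14 alternatives, with adjusted p up to 0.264. C4-2B and PC3 (0.238), and PC3 and DU145 (0.110), were not called apart.

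DAAM2 stayed near the filter level in every line and had no called contrast. It read 2.56 with siDNAPK and 2.84 in the control of C4-2B, 2.47 and 1.97 in VCaP, 2.70 and 2.64 in DU145, and 2.47 and 2.48 in PC3. Probe sets this dim can understate a difference, so the data do not show whether the lines differ in DAAM2.

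INVS was highest in VCaP, with 7.58 both with siDNAPK and in the control, then 7.13 and 6.99 in DU145, 6.56 and 6.61 in C4-2B, and 6.13 and 6.41 in PC3. The lines did not overlap. VCaP minus C4-2B was 0.996 ± 0.17 (SE) and VCaP minus PC3 1.31 ± 0.17 (limma, adjusted p = 0.00343 and 6.46e-04). PC3 minus DU145, at -0.79 (adjusted p = 0.0110), lost its call without the DU145 siDNAPK array (0.0953) or the PC3 siDNAPK array (0.107). VCaP minus DU145, at 0.52 (0.0404), missed the threshold in 9 of 14 alternatives, among them each of the 8 fits that left out 1 array (0.0511 to 0.233) and the cyclic loess scaling (0.0575). C4-2B was not called apart from DU145 (0.0653) or PC3 (0.192).

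By contrast, the called members numbered 5 of 9 for VCaP minus C4-2B (34.7% of all genes tested), 5 for VCaP minus DU145 (41.7%) and 4 for VCaP minus PC3 (41.1%). They numbered 4 for C4-2B minus DU145 (34.5%), 3 for PC3 minus DU145 (30.5%) and 1, PRICKLE1, for C4-2B minus PC3 (36.2%). In VCaP against C4-2B, PRICKLE1, DAAM1 and INVS were higher and CELSR1 and CELSR2 were lower. No line was high or low across the family.

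**Figure D2:**
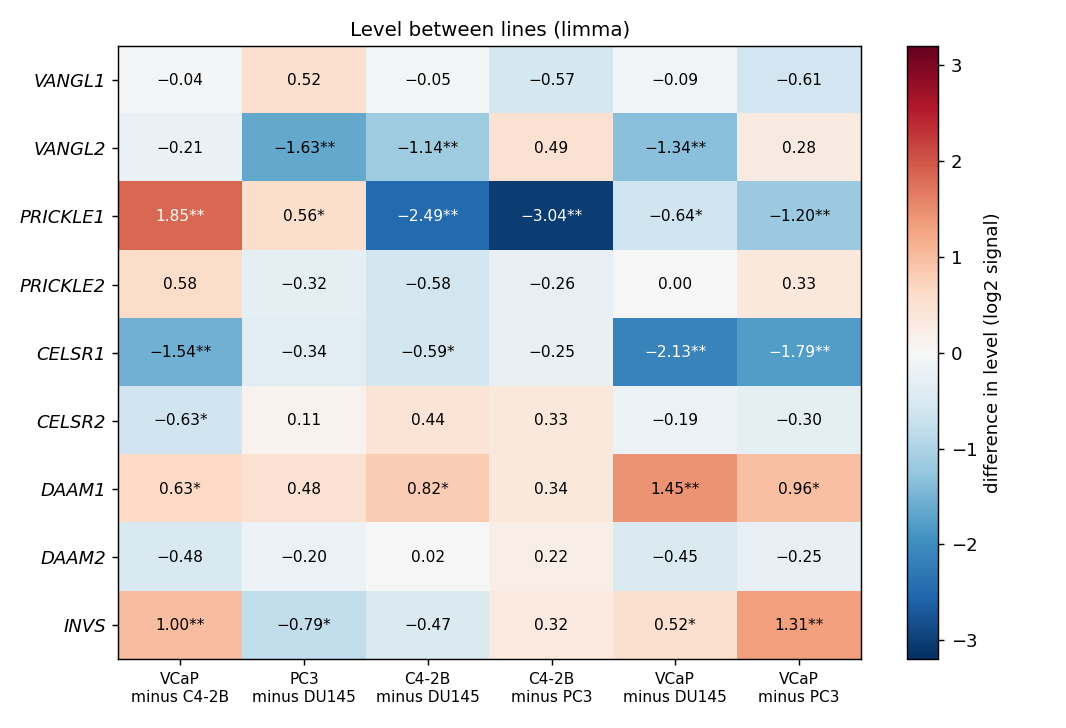
Difference in level between lines (log2 signal as a colour scale, with the limma estimate printed in each cell) for the 9 genes (rows) in the 6 line contrasts (columns). A double star marks the 13 calls that held under all 14 alternatives and a single star the 9 calls that ended under at least 1, and PRICKLE1 carries the widest contrast, -3.04 for C4-2B minus PC3.

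With DNA-PK depleted, none of the 9 genes passed the test across lines. The limma fit with line as a block called 0 of 16796 genes, or 0% (smallest adjusted p 0.688), so the absence of calls is shared with the whole array. PRKDC, the siRNA target, was itself not called, at -1.56 (limma, unadjusted p = 8.37e-04, adjusted p = 0.688), though lower in each line. The lack of a call therefore does not show that a gene was unchanged. Before adjustment 1208 genes, 7.19% of all, had a p under 0.05, and 0 of the 9 did. The median of the mean differences was 0.02 over the 9 genes and 0.03 over all genes, with 5 of the 9 above 0 and 4 below, while 56.4% of all genes lay above 0. None of the 36 differences in single lines passed 1 on the log2 scale, which 0.583% of all genes did in C4-2B, 3.7% in VCaP, 1.12% in DU145 and 1.07% in PC3. Members above 0 numbered 2 of 9 in C4-2B (57.1% of all genes), 6 in VCaP (49.7%), 5 in DU145 (56.9%) and 3 in PC3 (55.5%).

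PRICKLE1 was the 1 gene of the 9 with the same sign in every line, lower with siDNAPK. Its difference was -0.03 in C4-2B, -0.21 in VCaP, -0.18 in DU145 and -0.30 in PC3, a mean of -0.18 ± 0.11 (SD, n = 4 lines; limma, adjusted p = 0.725). The 95% interval ran from -0.44 to 0.08. Of all genes 5.89% were lower in all 4 lines and 17.4% had the same sign in either direction, so 1 of 9 is near the background. The smallest value was in C4-2B, where the gene read lowest, at 3.16 with siDNAPK and 3.19 in the control.

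The cadherin genes lay below 0 in 3 of 4 lines each. CELSR1 averaged 4.09 ± 0.91 with siDNAPK and 4.27 ± 0.98 in controls (SD, n = 4 lines), with differences of -0.19 in C4-2B, -0.10 in VCaP, -0.40 in DU145 and 0.00380 in PC3. Its mean difference was -0.17, with a 95% interval of -0.45 to 0.10 (limma, adjusted p = 0.743), and it was -0.096 without DU145. CELSR2 averaged 5.33 ± 0.23 with siDNAPK and 5.44 ± 0.32 in controls, and differed by -0.11 in the mean (interval -0.39 to 0.18, adjusted p = 0.836), with -0.039 without DU145 and -0.20 without VCaP. Only VCaP, at 0.17, went the other way for CELSR2.

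VANGL2 lay above 0 in 3 lines, with 0.54 in DU145, 0.13 in VCaP and 0.10 in C4-2B, and at -0.03 in PC3. Its mean was 0.18 ± 0.25 (SD, n = 4 lines; limma, adjusted p = 0.749), and 0.07 without DU145, the line in which the gene is highest. VANGL1 went both ways, with 0.28 in VCaP and in DU145, -0.02 in C4-2B and -0.47 in PC3, again the line with its highest level. The mean was 0.02 ± 0.36 (adjusted p = 0.981), and it turned to -0.017 with cyclic loess scaling. For neither gene did the mean exceed the spread between lines.

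DAAM1 had the largest mean among the 9, at 0.24 ± 0.30 (SD, n = 4 lines; limma, 95% interval -0.09 to 0.57, adjusted p = 0.714). It lay at 0.62 in VCaP, 0.34 in PC3, 0.06 in C4-2B and -0.05 in DU145, and without VCaP the mean was 0.12. DAAM2 lay at 0.50 in VCaP, 0.06 in DU145, -0.01 in PC3 and -0.28 in C4-2B, with a mean of 0.07 ± 0.32 (adjusted p = 0.915) that turned to -0.077 without VCaP and was 0.18 without C4-2B. INVS lay at 0.15 in DU145, -0.00180 in VCaP, -0.05 in C4-2B and -0.29 in PC3, with a mean of -0.05 ± 0.18 (adjusted p = 0.928) that turned to 0.030 without PC3 and was -0.11 without DU145.

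PRICKLE2 gave opposite answers by probe set. The brighter one lay at 0.70 in VCaP, 0.30 in DU145, 0.03 in PC3 and -0.34 in C4-2B, with a mean of 0.17 ± 0.44 (SD, n = 4 lines; limma, adjusted p = 0.810). The other lay below 0 in each line, from -0.29 in C4-2B to -0.11 in PC3. Without VCaP the brighter set averaged -0.00162, and without C4-2B 0.35. Averaging both sets gave a mean of -0.015, so no direction can be read for this gene.

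Differences past 0.5 in size were 4 of 36. VCaP held 3 of them (PRICKLE2, DAAM1 and DAAM2, all higher), where 23.3% of all genes passed 0.5, and DU145 held 1 (VANGL2), where 11.4% did. In C4-2B and PC3 there were none, against 8.27% and 11.3% of all genes. The differences over all genes had an SD of 0.462 in VCaP, against 0.334 in DU145, 0.327 in PC3 and 0.288 in C4-2B, and VCaP was also the line that kept most PRKDC signal. With 1 array per treatment in a line, the siRNA's effect cannot be told apart from other differences within an array pair.

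**Figure D3:**
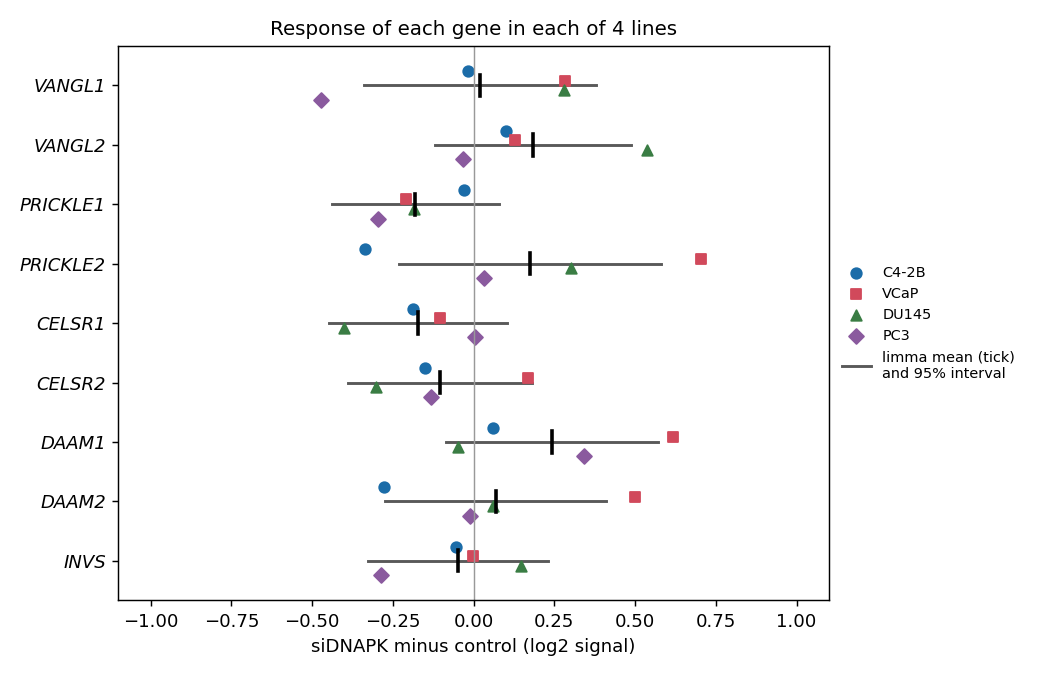
Difference siDNAPK minus control (log2 signal, horizontal axis) of each gene in C4-2B, VCaP, DU145 and PC3 (symbols), with the limma mean over the 4 lines (tick) and its 95% interval (line). Every interval spans 0, and the widest values are 0.70 (PRICKLE2) and 0.62 (DAAM1), both in VCaP.

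The mean response of C4-2B and VCaP was also set against that of the DU145 and PC3 pair. Over all genes 0 were called (0%; limma, smallest adjusted p 0.991), with 621 at an unadjusted p under 0.05 (3.7%) and 0 of the 9 among them. The largest contrasts among the 9 were 0.23 for VANGL1 and for CELSR2, with 95% intervals of -0.52 to 0.98 and -0.38 to 0.83. Intervals this wide leave room for differences in response of up to 0.98 that the 4 lines could not resolve.

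Partners of the 9 genes were read from 6 lists of the pathway, 55 genes in all, of which 50 were tested. None was called (limma, 0 higher and 0 lower), and 1, FMNL2, had an unadjusted p under 0.05. Their mean differences lay above 0 for 30 and below 0 for 20, with a median of 0.02, against 0.03 over all genes. Of 12 ligands and receptors 4 lay above 0, and their median was -0.03. The receptor FZD6 had 0.34 ± 0.56 (SD, n = 4 lines), a value carried by VCaP (1.17) that was 0.06 without that line. FZD2 had -0.30 ± 0.45, with -0.71 in DU145 and -0.67 in VCaP but values above 0 in C4-2B and PC3, and averaged -0.17 without VCaP and -0.16 without DU145. ROR2, a WNT5A receptor, had -0.28 ± 0.21, below 0 in 3 lines and 0.00210 in VCaP.

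Cytoplasmic partners had a median of 0.09 over 11 genes, 8 above 0. ANKRD6 (diversin) had 0.16 ± 0.36, carried by DU145 (0.64) and -0.00450 without it. SMURF1, a ubiquitin ligase that in mice targets Prickle1, had -0.15 ± 0.15, below 0 in each line and -0.08 without VCaP. PRICKLE3 had 0.14 ± 0.17, above 0 in 3 lines, and 0.08 without DU145. Against a count of 17.4% of all genes with 1 sign in 4 lines, 2 of these 11 genes had it.

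The Fat and Dachsous list, genes of a second polarity system, had a median of 0.06 over 6 genes. DCHS2 had 0.19 ± 0.33 (0.03 without VCaP), FJX1 0.18 ± 0.45 and FAT1 -0.13 ± 0.31. Cilium effectors all lay above 0, 5 of 5, but by little, with a median of 0.07 and a highest value of 0.13 for INTU, followed by CPLANE2 (0.11) and WDPCP (0.07). Partners of inversin had a median of -0.02 over 3 genes, with NEK8 at -0.21 ± 0.39, NPHP4 at 0.08 ± 0.56 and ANKS6 at -0.02 ± 0.15. Among the other formins, with a median of 0.00337 over 13 genes, FMNL2 had -0.34 ± 0.29 (limma, unadjusted p = 0.0451, adjusted p = 0.688), FMNL3 0.25 ± 0.33 and INF2 0.21 ± 0.18. Several of these means rested on 1 line. Without C4-2B, FJX1 averaged 0.03 and CPLANE2 -0.0064, and NPHP4 turned to -0.07. Without DU145, FAT1 averaged -0.03, WDPCP 0.02 and NPHP4 -0.08. Without VCaP, NEK8 averaged -0.08, INF2 0.12 and NPHP4 0.17, and without PC3, FMNL3 averaged 0.10, ANKS6 0.04, NEK8 -0.39 and NPHP4 0.30.

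**Figure D4:**
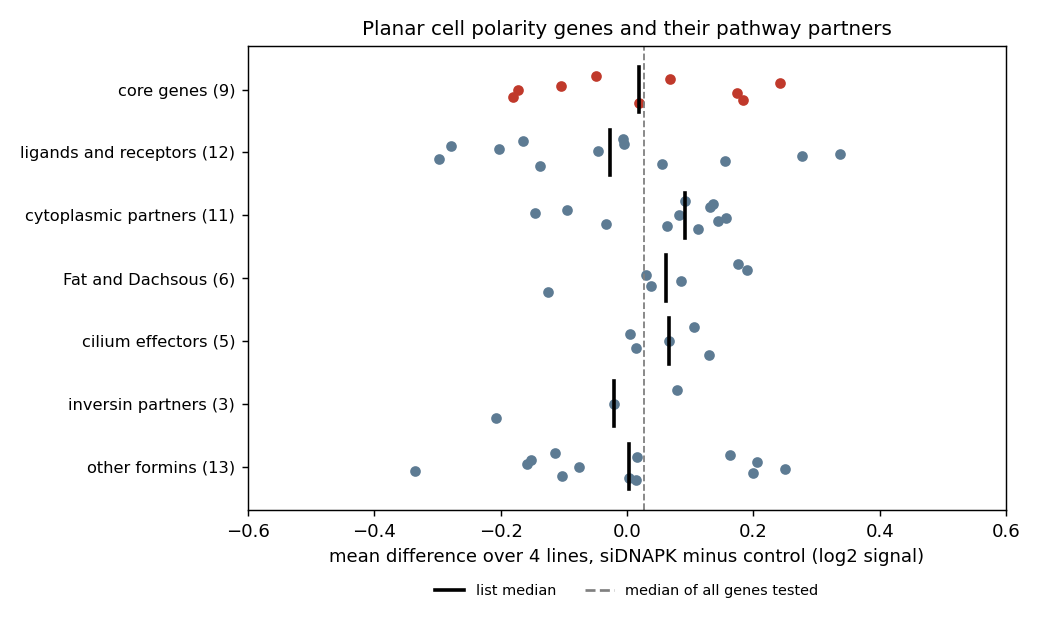
Mean difference over 4 lines, siDNAPK minus control (log2 signal, horizontal axis), of the 9 core genes and of the tested members of 6 partner lists (1 point a gene, number tested in brackets), with the list median as a bar and the median of all genes, 0.03, as a dashed line. List medians run from -0.03 (ligands and receptors) to 0.09 (cytoplasmic partners), and FZD6 is the point farthest right at 0.34.

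Across the 8 arrays the 9 genes shared no common profile. The 36 Pearson correlations between them had a median of 0.041 and ran from -0.896 (CELSR1 with DAAM1) to 0.674 (CELSR1 with DAAM2), and 19 lay above 0. The arrays come in 4 lines of 2, so each value describes little more than 4 points. The genes most like each member over the 8 arrays were taken by Pearson correlation among all genes above the filter. For PRICKLE1 they were PLAC4 (0.997) and TSPAN12 (0.995), both lowest in C4-2B and highest in PC3. CELSR1 was followed by ZDHHC7 (0.994) and the luminal keratin gene KRT18 (0.992), both lowest in VCaP. VANGL2 had RADX (0.998) and CEP55 (0.991), highest in DU145.

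DAAM1 had the Notch ligand gene DLL1 (0.996) and ZNF667 (0.993), both highest in VCaP. INVS had ZBTB34 (0.988) and ZC3H4 (0.984). For members that varied little, VANGL1 had FN3KRP (0.959) and FAAP20 (0.958), CELSR2 had ERVK13-1 (0.979) and PGBD2 (0.967), PRICKLE2 had PPP1R14B (0.957) and PLXDC1 (0.945), and DAAM2 had KCNJ14 (0.983) and POM121L12 (0.964). Each is among the highest of 16795 correlations, over arrays that share 4 lines.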

How the data were processed

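The authors deposited log2 signal values, 1 per probe set and array, and per the submitters' processing notes the authors used oligo and RMA (background correction, alignment of array distributions, probe summary), with no version given. That alignment removes a change shared by most genes. Total RNA (400 ng) was labelled with a whole-transcript kit, per the labels' protocols. Scanner files were not analysed here, hence no detection calls or scan batches. Precision is limited by having 8 arrays.

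Of 53617 probe sets, 23871 had 1 symbol in the platform annotation, 1842 had several and 27904 were unnamed here. Symbols were updated through Entrez identifiers for 22569. For each of 22395 genes the brightest probe set, by its mean on the 8 arrays, was kept, and the 16796 with a mean above the 25th percentile were tested with limma 3.58.1 in R 4.3.3 (lmFit and eBayes, 2-sided, Benjamini-Hochberg over all genes, threshold 0.05). Differences are siDNAPK minus control on the log2 scale. The fit across lines had line as a block and 3 residual degrees of freedom (7.55 with the prior). The fit of line contrasts used the same terms. The contrast of responses had 2 residual degrees of freedom.

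Lines pair the arrays by design. After subtracting group means, arrays of a line correlated at 0.864 to 0.918 across genes and arrays of different lines at 0.0135 or less. The 2 arrays of a line received different siRNA, so they are not technical repeats of 1 sample. No treatment was repeated within a line. A sign-flip test of 4 pairs cannot go below an exact 2-sided p of 0.125. Each fit was also run on simulated data with known changes.

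The members and lists were chosen with earlier results of these data known. Another list of downstream effectors is not reported here. The genes named are the 10 members, the 3 partners of each list with the largest mean difference, the 2 most correlated genes of each member, PRKDC and the identity markers. CD68, CDH2 and ZEB1 were named with their marker lists. Alternatives were other scalings, filters, probe set rules and variance models, fits without line or treatment as a term, and leaving out lines or arrays.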

Additional observations from a re-analysis of the deposited data

How the results depend on the processing

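The count of genes called between siDNAPK and control stayed at 0 under each of 11 alternatives, and that for the difference in response at 0 under each of 7. With no replicate block the count was also 0, but the main fit had no calls to lose, so this count cannot show what the block does. The limma adjusted p of each member was 0.99998 without the block, against 0.714 (DAAM1) to 0.981 (VANGL1) with it. Of 96 alternative values of the 9 mean differences, 7 turned sign, in 4 genes. Many of the 96 could not turn, because the filters, the variance trend and the missing line term leave a mean difference unchanged. The probe set rule could move PRICKLE2 alone. VANGL1 was -0.017 with cyclic loess and ran from -0.069 (without VCaP) through -0.068 (without DU145) to 0.18 over fits leaving out 1 line. PRICKLE2 was -0.015 as the mean of its probe sets and ran from -0.00162 (without VCaP) to 0.35, DAAM2 from -0.077 (without VCaP) to 0.18, and INVS from -0.11 to 0.030 (without PC3). In single lines 1 of 108 values moved by more than the spread between lines, PRICKLE2 in VCaP, at 0.24 as the mean of its probe sets. There too, the probe set rule could move only PRICKLE2. Several alternatives leave the estimate of a line contrast unchanged. Some alternatives added calls, with 24 among the members under a variance trend and 24 with averaged probe sets, against 22 in the main fit. A contrast not called in the main fit was therefore not always uncalled under the alternatives. The 22 calls between lines kept their sign under each alternative. Of them 16 (without either C4-2B array) to 20 held when 1 array was left out, and 20 (cyclic loess) to 22 otherwise. Over all genes, 11 counts of line calls fell by over 1.5 times when 1 array was left out, to between 2716 and 3777. Fits that leave out an array rest on 1 array in that line, whose spread is taken from the other lines. PRKDC kept its sign, from -1.87 (without VCaP) to -1.23 (without C4-2B). Low signal limits DAAM2, PRICKLE2, CELSR1 in VCaP, VANGL2 in PC3 and VCaP, and PRICKLE1 in C4-2B, since no detection call was at hand. Background correction and scan batch could not be varied.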
